A study of Mus musculus with 18 samples.

Results

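The CC chemokine genes Ccl2, Ccl5, Ccl7, Ccl8, Ccl9, Ccl11 and Ccl20 were followed in 18 RNA-seq libraries. They were taken by symbol from the 24514 genes of the deposited count table, in which 24 CC chemokine genes were looked up in all. The cells were iMGT-Myh6-eGFP mouse embryonic fibroblasts (MEFs), a line in which doxycycline switches on the cardiac transcription factors Mef2c, Gata4 and Tbx5 and a green reporter follows the cardiac gene Myh6. All 6 groups carried these transgenes and had been transfected with an siRNA the day before day 0: a control siRNA (siControl) or an siRNA against Chst7 (siChst7), a Golgi sulfotransferase of glycosaminoglycan chains. Day 0 groups had not yet received doxycycline, and the day 1 and day 3 groups had received 1 µg/mL for 1 or 3 days. Each group had 3 samples that the labels call biological replicates, each a pool of 40 wells plated at 1000 cells per well. The labels do not say whether these came from separate cultures, so p-values measure the spread between these samples. No induced group had a counterpart without doxycycline, so the factors, the time in culture and the time since transfection cannot be told apart in a comparison between days.

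CC chemokines are small secreted proteins with a pair of adjacent cysteines near the amino terminus. They bind G-protein-coupled receptors on leukocytes and, held on glycosaminoglycans, guide those cells into tissue. Fibroblasts are known as a stromal source of the monocyte chemoattractants Ccl2 and Ccl7, whose genes respond to NF-kappaB and to cytokines such as interleukin-1 and tumour necrosis factor. Ccl5 recruits T cells and monocytes, Ccl8 is encoded near Ccl2 and Ccl7, Ccl9 attracts myeloid cells through Ccr1, Ccl11 is eotaxin, and Ccl20 is the ligand of Ccr6.

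Total counts ran from 30590742 to 50021142 per library. Chst7 itself stood at 18.6 to 40.4 CPM (counts relative to the scaled library total) in the 9 siControl libraries. In the 9 siChst7 libraries it stood at 0.238 to 2.96 CPM. Its siChst7 means at days 0, 1 and 3 were 0.438, 0.755 and 2.16 CPM, against 19.2, 37.6 and 25.1 CPM in siControl. The depletion of Chst7 was weaker at day 3 than at day 1, by 2.10 ± 0.26 on the log2 scale (SE, edgeR quasi-likelihood test, adjusted p = 1.58e-05). The fibroblast marker list (10 genes, led by Vim) summed to between 7230 and 13000 CPM, whereas the macrophage and leukocyte list (8 genes, led by Cd68) summed to between 7.97 and 30.0 CPM. The macrophage gene Adgre1 was at 0 in 5 of the 6 groups, as was Tyrobp. Libraries of siChst7 at day 3 stood apart: replicates 1 to 3 differed from each other by 21.2 to 55.3 in chi-square per degree of freedom, with the larger values for pairs that held replicate 2, and replicate 1 held 1.96% of its counts in the ribosomal gene Rn45s against 0.131% to 0.654% elsewhere. Replicate 3 of siChst7 at day 0 was also apart, at 14.5 and 14.8, whereas pairs in the other groups and the remaining pair of that group lay between 2.92 and 5.27.

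At day 0 in siControl, Ccl2 was the most abundant of these messages. Per kilobase of deposited gene length, it reached 1058 ± 62.7 CPM (SD, n = 3), Ccl7 307 ± 17.2, Ccl5 57.8 ± 4.63, Ccl8 3.60 ± 0.407, Ccl20 2.56 ± 0.0504 and Ccl9 1.17 ± 0.0364. The ranges of these 6 genes did not overlap, so that neighbours in this order were separated by more than the spread of the libraries. Ccl11 had no count in any of these libraries, where 3 counts over the group would be 0.0225 CPM. Of the 7 genes, 6 lie in the CC chemokine region of chromosome 11 (GRCm38, RefSeq), with Ccl2, Ccl7, Ccl11 and Ccl8 in a row within 81223 bases, starting at chr11:82035577-82037452 for Ccl2 and ending at chr11:82115185-82116799 for Ccl8. Ccl5 (chr11:83525778-83530518) and Ccl9 (chr11:83572917-83578636) lie beyond them on the opposite strand, and Ccl20 is at chr1:83116766-83119167. The longest identical stretch between transcripts of any 2 of the 7 genes was 23 bases, between Ccl2 and Ccl7, and Ccl9 shared 25 bases with the unlisted neighbour Ccl6. Ccl2 overlaps a gene of the opposite strand in GENCODE M21, Gm17268, and the reads of such a pair cannot be told apart here because the strand setting of the counting is not given in the sources used here.

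**Figure D1:**
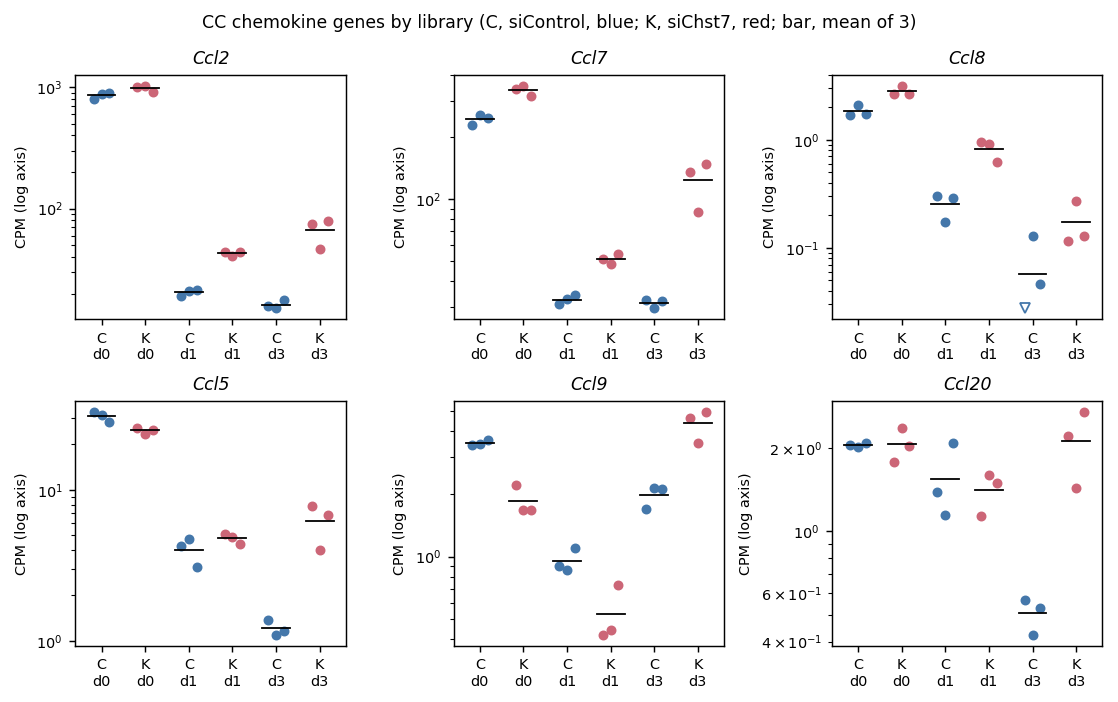
CPM (log axis) of the 6 tested CC chemokine genes in each of the 18 libraries, with siControl (C) in blue, siChst7 (K) in red, days marked d0, d1 and d3, and the mean of 3 libraries as a bar. An open triangle marks the library with 0 counts. Ccl2 fell from 795 to 890 CPM in siControl at day 0 to 15.2 to 17.7 at day 3, and the siChst7 libraries of day 3 lay above siControl for every gene shown except Ccl8, whose ranges overlap.

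The first comparison asked what happened to these messages over the first day of doxycycline in siControl cells. Of the 6 tested members Ccl2 fell the most, and Ccl7 and Ccl5 fell by like amounts. Ccl2 stood at 795, 874 and 890 CPM in replicates 1 to 3 at day 0 and at 19.1, 21.0 and 21.4 CPM at day 1. All day 1 libraries lay far below all day 0 libraries, and the mean at day 1 was 2.40% of that at day 0. The log2 fold change was -5.38 ± 0.14 (SE; edgeR quasi-likelihood test, adjusted p = 3.1e-19). Ccl7 went from 231, 258 and 247 CPM to 30.9, 32.7 and 34.2 CPM, again with no overlap, a change of -2.91 ± 0.12. Ccl5 went from 32.8, 31.2 and 28.0 CPM to 4.24, 4.74 and 3.11 CPM, a change of -2.93 ± 0.16. Ccl7 was left at 13.3% and Ccl5 at 13.1% of its day 0 mean.

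The scarcer members moved less evenly in that day. Ccl8 fell from 1.71, 2.08 and 1.74 CPM to 0.301, 0.172 and 0.291 CPM, a change of -2.84 ± 0.33. Ccl9 fell from 3.46, 3.48 and 3.66 CPM to 0.903, 0.862 and 1.10 CPM, a change of -1.88 ± 0.20. For both the days were fully separated. Ccl20 stood at 2.05, 2.01 and 2.10 CPM at day 0 and at 1.38, 1.15 and 2.09 CPM at day 1, so that replicate 3 reached the day 0 range, and its change of -0.41 ± 0.24 was not called (adjusted p = 0.142). Without that library it was called, at -0.70 (adjusted p = 0.0273). In all, 5 of the 6 tested members were lower, in a comparison in which 60.3% of all 13802 tested genes were called, 30.8% of them lower (each share is of all tested genes). The members' median log2 fold change was -2.88, beside 0.00 over all tested genes. The sum of the macrophage and leukocyte list went from 26.0 to 28.0 CPM at day 0 to 7.97 to 9.27 CPM at day 1. Of its 5 tested genes 3 were lower, Cd68 (-2.01 ± 0.10), Itgam (-2.12 ± 0.51) and Lyz2, while Csf1r was higher (1.74 ± 0.26) and Fcer1g was not called (1.58 ± 0.74, adjusted p = 0.0717). Their part in the members' fall was not tested. In bulk samples, fewer cells of a type and less RNA per cell cannot be told apart.

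From day 1 to day 3 the members of siControl cells parted. Ccl5 fell further, to 1.38, 1.10 and 1.17 CPM, all below the day 1 libraries (log2 fold change -1.74 ± 0.23, adjusted p = 9.31e-07). Ccl20 fell to 0.565, 0.424 and 0.528 CPM, also without overlap (-1.62 ± 0.29, adjusted p = 5.93e-05). Ccl8 was close to its detection limit, with 0, 6 and 2 counts at day 3 against 6 to 10 counts at day 1 (-1.96 ± 0.60, adjusted p = 0.00822). Counts of this size limit its precision, and 1 library without the gene is included in that value. The change was -3.18 without replicate 2 of day 3 and -1.50 without replicate 1, called in both. Ccl2 reached 15.9, 15.2 and 17.7 CPM, which is 79.4% of the day 1 mean. That step of -0.33 ± 0.14 was called at an adjusted p of 0.0414, but not under 6 of 10 other settings nor in 4 of 6 fits that left out a library. Ccl7 held at 32.6, 29.6 and 32.2 CPM, overlapping its day 1 range, and its change of -0.05 ± 0.13 (95% interval -0.33 to 0.23) was not called (adjusted p = 0.756). Ccl9 ran the other way and rose to 1.69, 2.14 and 2.11 CPM, 207% of its day 1 mean (1.06 ± 0.22, adjusted p = 0.000262). So 4 members were called lower and 1 higher, where 32.3% and 22.8% of all tested genes were.

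Over the whole 3 days in siControl, all 6 tested members were lower at day 3 than at day 0, beside 39.5% of all tested genes. Their log2 fold changes ran from -5.71 ± 0.14 for Ccl2 and -4.80 ± 0.41 for Ccl8 through -4.66 ± 0.19 for Ccl5, -2.97 ± 0.12 for Ccl7 and -2.03 ± 0.27 for Ccl20 to -0.82 ± 0.18 for Ccl9. Ccl9 thus kept 56.2% of its day 0 level, Ccl20 24.6%, Ccl7 12.8%, Ccl5 3.97%, Ccl8 3.13% and Ccl2 1.91%. The place of Ccl8 in this order rests on single libraries, since its log2 fold change was -6.02 without replicate 2 of day 3 and -4.34 without replicate 1.

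The unequal falls of Ccl2 and Ccl7, neighbouring genes whose products share the receptor Ccr2, reversed their order. Per base of gene length, Ccl7 stood at 0.291 ± 0.00917 (SD, n = 3) of Ccl2 in siControl at day 0, at 1.60 ± 0.0303 at day 1 and at 1.96 ± 0.118 at day 3. Ccl2 made up 73.9% ± 0.847 of the members' counts per base at day 0 and 33.2% ± 0.613 at day 1, whereas Ccl7 rose from 21.5% ± 0.463 to 53.3% ± 0.978. In siChst7 the ratio was 0.351 ± 0.00174, 1.20 ± 0.0407 and 1.87 ± 0.0420 at the 3 days. The ranges of siControl and siChst7 did not overlap at day 0 or day 1, with 1.57 to 1.63 against 1.17 to 1.25 at day 1. At day 3 they overlapped, at 1.83 to 2.07 against 1.83 to 1.91. No test was run on the ratio.

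**Figure D2:**
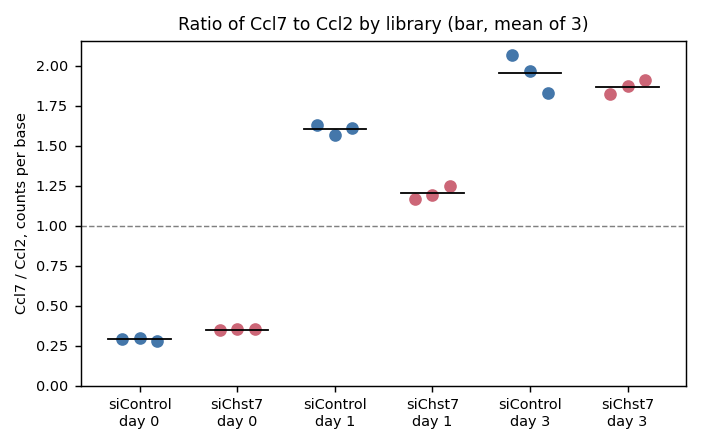
Ratio of Ccl7 to Ccl2 (counts per base of gene length) in each library of the 6 groups, with the mean of 3 libraries as a bar and a dashed line at equal levels. The ratio is below 0.36 in all day 0 libraries and above 1.1 in all libraries of days 1 and 3.

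The same intervals in siChst7 cells showed the fall to day 1 and, for 4 members, a rise from there to day 3. From day 0 to day 1, Ccl2 went from 995, 1024 and 906 CPM to 44.1, 40.9 and 44.0 CPM (-4.50 ± 0.13) and Ccl7 from 345, 357 and 317 CPM to 51.2, 48.4 and 54.5 CPM (-2.73 ± 0.12), each without overlap. Ccl5 (-2.37 ± 0.15), Ccl8 (-1.77 ± 0.26) and Ccl9 (-1.80 ± 0.23) were lower as well, and Ccl20 was not called, at -0.54 ± 0.24 (adjusted p = 0.0512), though it was called under 9 of 10 other settings. That made 5 of 6 members lower, beside 30.5% of all tested genes. From day 1 to day 3, Ccl9 rose by 3.03 ± 0.22 on the log2 scale, to 823% of its day 1 mean, Ccl7 by 1.27 ± 0.12, Ccl2 by 0.63 ± 0.12 and Ccl20 by 0.56 ± 0.24 (adjusted p = 0.0468). Those 4 higher members stood beside 31.7% of all tested genes called higher. Ccl8 alone was called lower (-2.18 ± 0.39), where 33.5% of all tested genes were lower, and Ccl5 was not called, at 0.35 ± 0.17 (adjusted p = 0.0756). Without replicate 2 of siChst7 at day 3, which stood apart, Ccl5 was called higher, at 0.61 (adjusted p = 6.78e-05). The rise of Ccl20 was no longer called without replicate 1 (adjusted p = 0.112) or 3 (0.36, adjusted p = 0.236) of that group or without replicate 1 (adjusted p = 0.176) or 3 (adjusted p = 0.0709) of siChst7 at day 1, and was 0.14 (adjusted p = 0.623) with the trend with gene length removed. Under that setting Ccl2 was at 0.20 (adjusted p = 0.0152), Ccl7 at 0.83 and Ccl9 at 3.05, all still called, and Ccl5 at -0.24 (adjusted p = 0.132).

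**Figure D3:**
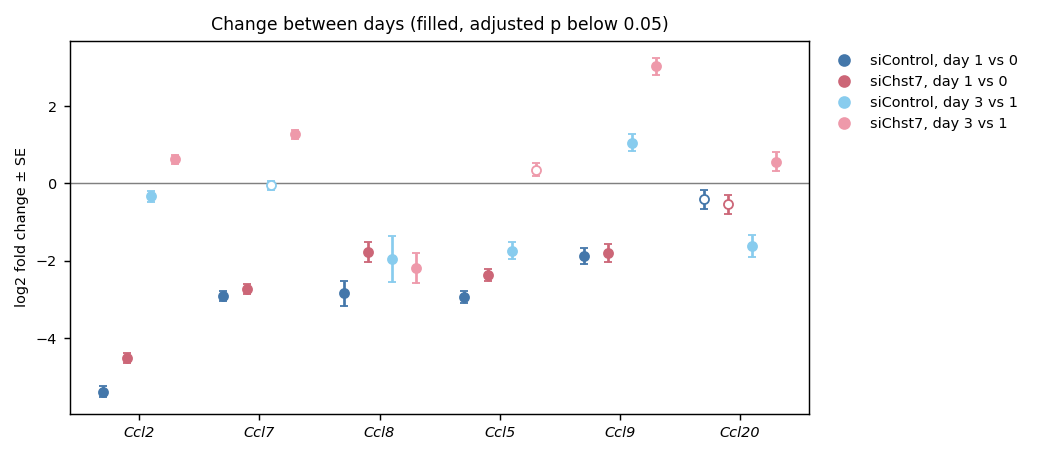
Log2 fold change (± SE) of the 6 tested genes from day 0 to day 1 and from day 1 to day 3, in siControl and siChst7, with filled points where the adjusted p was below 0.05. All first-day changes are below 0. From day 1 to day 3, Ccl9 is above 0 in both. Ccl2, Ccl7, Ccl20 and Ccl5 are above 0 in siChst7 only, with Ccl5 as an open point.

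The comparison of siChst7 with siControl at each day asked how these messages differed between the siRNAs. No group here separates the loss of Chst7 from other effects of its siRNA, so these cannot be told apart. At day 0, before doxycycline, the differences were of both signs, with log2 fold changes from -0.93 for Ccl9 to 0.62 for Ccl8. Ccl7 was at 345, 357 and 317 CPM in siChst7 against 231, 258 and 247 CPM in siControl, with no overlap, a log2 fold change of 0.47 ± 0.11 (adjusted p = 0.00283). Ccl9 was at 2.20, 1.67 and 1.67 CPM against 3.46, 3.48 and 3.66 CPM, also separated, but lower (-0.93 ± 0.18, adjusted p = 0.000406). Ccl8 was at 2.68, 3.17 and 2.65 CPM against 1.71, 2.08 and 1.74 CPM, and its call was marginal (0.62 ± 0.23, adjusted p = 0.0495). It was lost in each of 6 fits that left out 1 library, with adjusted p from 0.0686 to 0.175.

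The most abundant member, Ccl2, differed little at day 0. Its siChst7 libraries all lay above siControl, by a log2 fold change of 0.19 ± 0.11 (95% interval -0.04 to 0.43) that was not called. Ccl5 was lower in all siChst7 libraries, at 25.6, 23.6 and 25.1 against 32.8, 31.2 and 28.0 CPM, and was not called either (-0.31 ± 0.13, adjusted p = 0.0871). Each of Ccl2 and Ccl5 was called at this day under 4 of 10 other settings. Ccl20 was at 1.78, 2.38 and 2.05 CPM against 2.05, 2.01 and 2.10 CPM, ranges that overlapped (0.01 ± 0.22, 95% interval -0.48 to 0.49). Thus 2 of the 6 tested members were called higher and 1 lower, where 13.9% and 13.5% of all tested genes were. Ccl11, the eotaxin gene, had 4, 6 and 2 counts in the 3 siChst7 libraries of day 0 and none in any of the other 15 libraries of the series. It was left out by the filter on low counts and carries no test in the fit. Without that filter its day 0 difference had an adjusted p of 0.0878. At the same day the granulocyte gene S100a8 was at 3.66 ± 0.417 CPM in siChst7 and 1.07 ± 0.452 CPM in siControl (1.77 ± 0.26, adjusted p = 5.83e-05), while its partner S100a9 was at 0 in both, and its part in these differences was not tested.

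At day 1 Ccl2, Ccl7 and Ccl8 were higher in siChst7. Ccl2 was at 44.1, 40.9 and 44.0 CPM against 19.1, 21.0 and 21.4 CPM, with no overlap (1.07 ± 0.13, adjusted p = 2.98e-06). Ccl7 was at 51.2, 48.4 and 54.5 CPM against 30.9, 32.7 and 34.2 CPM (0.66 ± 0.12, adjusted p = 0.000665). Ccl8 was at 0.950, 0.907 and 0.628 CPM against 0.301, 0.172 and 0.291 CPM (1.70 ± 0.37, adjusted p = 0.00241), which rests on 24 to 39 counts against 6 to 10. In all 3 the groups were separated. Ccl9 was still lower, at 0.422, 0.442 and 0.733 CPM against 0.903, 0.862 and 1.10 CPM (-0.85 ± 0.27, adjusted p = 0.0292). That call was lost without replicate 1 or 3 of siControl and without replicate 1 or 2 of siChst7, with adjusted p up to 0.122, and also with halved counts (0.0596) or with the compared libraries alone (0.0548). Ccl5 overlapped between the groups, at 5.09, 4.91 and 4.37 CPM against 4.24, 4.74 and 3.11 CPM (0.25 ± 0.18, 95% interval -0.15 to 0.65), and so did Ccl20, at 1.13, 1.60 and 1.49 against 1.38, 1.15 and 2.09 CPM (-0.12 ± 0.25). The 3 members called higher and 1 called lower stood beside 8.86% and 8.72% of all tested genes. The macrophage and leukocyte list was separated too at this day, with sums of 9.82 to 10.6 CPM in siChst7 and 7.97 to 9.27 CPM in siControl. Of its 5 tested genes 2 were called higher, Cd68 (0.33 ± 0.11) and Itgam (1.98 ± 0.52), where 8.86% of all tested genes were. Adgre1 and Tyrobp were at 0 in both groups, and the list's part in the members' differences was not tested.

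At day 3 the difference had spread to all but 1 of the tested members. Ccl2 was at 74.7, 46.9 and 78.8 CPM in siChst7 against 15.9, 15.2 and 17.7 CPM in siControl (2.03 ± 0.13, adjusted p = 4.79e-10). Ccl7 was at 135, 87.3 and 149 CPM against 32.6, 29.6 and 32.2 CPM (1.97 ± 0.12, adjusted p = 4.73e-10). Ccl5 was at 7.84, 4.03 and 6.80 CPM against 1.38, 1.10 and 1.17 CPM, the largest difference of the 6 (2.34 ± 0.21, adjusted p = 4.62e-08). In each gene replicate 2 of siChst7 was the lowest of its group and still more than 2 times the highest siControl library. The SEs and p-values rest on a spread estimated over all 18 libraries, whereas these siChst7 libraries varied more. For Ccl2 in siChst7 the SD was 17.3 on a mean of 66.8 CPM at day 3, and 1.83 on 43.0 at day 1. Over 10 other settings the largest adjusted p at day 3 was 0.00061 for Ccl2 and Ccl7 and 0.00096 for Ccl5.

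The chemokines of low level differed too. Ccl20 was at 2.21, 1.44 and 2.71 CPM against 0.565, 0.424 and 0.528 CPM (2.05 ± 0.28, adjusted p = 5.18e-06), so that siChst7 cells held 102% of their own day 0 mean. Ccl9 was at 4.65, 3.53 and 4.96 CPM against 1.69, 2.14 and 2.11 CPM (1.13 ± 0.18, adjusted p = 3.18e-05). Its siChst7 libraries now lay above those of siControl, the reverse of days 0 and 1. Ccl8 had 4, 12 and 4 counts against 0, 6 and 2, in overlapping ranges (1.47 ± 0.63, adjusted p = 0.0646). It was called with DESeq2 (1.47, adjusted p = 0.0461) and without replicate 2 of siControl (2.69, adjusted p = 0.0139). In all, 5 of the 6 tested members were called higher, where 23.1% of all tested genes were. In the same 5 the groups did not overlap, as in 24.2% of all tested genes with siChst7 higher. The log2 fold changes had a median of 2.00 over the members and 0.01 over all genes.

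Gene length moved with the day 3 comparison. The 1094 tested genes under 1000 bases had a median log2 fold change of 0.55 there, beside 0.01 over all genes, and every tested member except Ccl9 (3008 bases) is that short, from 511 bases for Ccl8 to 806 for Ccl2. With the length trend removed, an alternative chosen after seeing the data, Ccl2 was higher by 1.54 on the log2 scale, Ccl5 by 1.62, Ccl7 by 1.47, Ccl20 by 1.56 and Ccl9 by 1.11. All 5 were still called. Without replicate 2 of siChst7 the 5 values were 2.23, 2.60, 2.17, 2.28 and 1.26, in the same order, and all were called. Ccl8 was at 0.79 and 0.92 under these settings and was not called. The sums of the macrophage and leukocyte list overlapped at day 3, with values of 10.9 to 13.6 CPM in siChst7 and 11.4 to 13.6 CPM in siControl. They were separated at day 1 and also at day 0, at 28.5 to 30.0 CPM in siChst7 against 26.0 to 28.0 CPM in siControl. At day 0 none of the list's 5 tested genes was called.

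**Figure D4:**
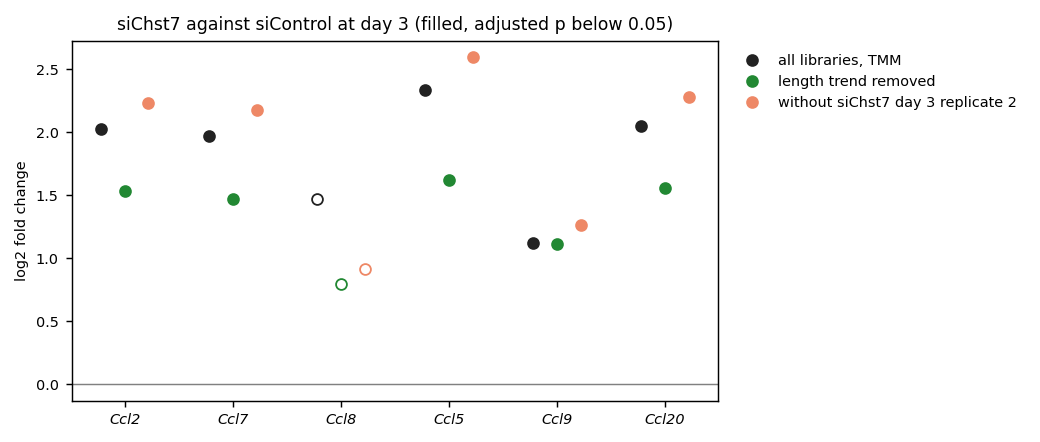
Log2 fold change of siChst7 against siControl at day 3 for the 6 tested genes, with all libraries, with the trend with gene length removed, and without replicate 2 of siChst7; filled points had an adjusted p below 0.05. Ccl2, Ccl7, Ccl5, Ccl9 and Ccl20 are filled under all 3 settings, at values from 1.11 to 2.60, and Ccl8 is open under all 3.

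Interaction terms tested whether the siChst7 effect differed between days. Terms with a day in common share the siControl and siChst7 libraries of that day, so they are not independent. The effects compared are those given above for each day. Ccl2 went from an effect of 0.19 at day 0 to 1.07 at day 1, a difference of 0.87 ± 0.17 (adjusted p = 0.00105), and it was the 1 of 6 members called higher in that term, beside 6.2% of all tested genes. Between day 3 and day 0, 5 of 6 members had a larger effect at day 3, beside 20.7% of all tested genes. Those differences were 1.84 ± 0.17 for Ccl2, 2.65 ± 0.25 for Ccl5, 1.51 ± 0.16 for Ccl7, 2.05 ± 0.25 for Ccl9 and 2.04 ± 0.36 for Ccl20. Between day 3 and day 1 the same 5 members were called, beside 15.3% of all tested genes, from 0.96 ± 0.18 for Ccl2 to 2.18 ± 0.38 for Ccl20. Gene length moved with this term as well, with a median of 0.46 for genes under 1000 bases beside 0.01 over all genes. With the length trend removed the 5 were still called between day 3 and day 1, at 0.54 for Ccl2, 1.49 for Ccl5, 0.88 for Ccl7, 1.95 for Ccl9 and 1.75 for Ccl20. Between day 3 and day 0 they were then at 1.32, 1.91, 0.99, 2.03 and 1.53 in the same order, all called. Ccl8 was not called in any of these terms, at 1.08 ± 0.44, 0.85 ± 0.67 and -0.22 ± 0.93.

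**Figure D5:**
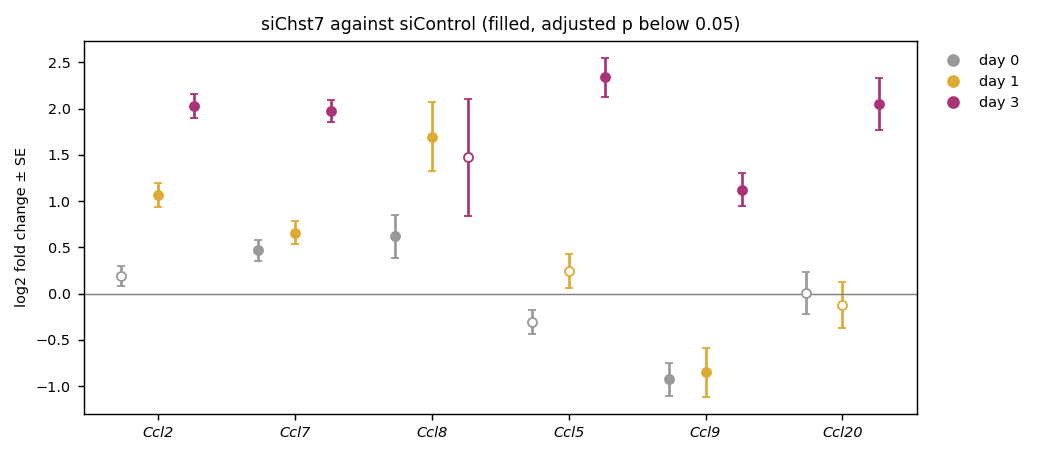
Log2 fold change (± SE) of siChst7 against siControl at days 0, 1 and 3 for the 6 tested genes, with filled points where the adjusted p was below 0.05. Ccl2 climbs from 0.19 to 1.07 to 2.03, Ccl5 and Ccl20 are filled at day 3 only, and Ccl9 is below 0 at days 0 and 1 and above 0 at day 3.

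Promoter sequence was at hand in RefSeq (GRCm38.p6) for 3 of the 7 genes. All 3, Ccl8, Ccl9 and Ccl20, are shown. Entries for Ccl2, Ccl5, Ccl7 and Ccl11 were missing. Each sequence is the 250 bases before the annotated start, read 5′ to 3′ on the gene's strand: Ccl20 at chr1:83116516-83116765 (plus strand), Ccl9 at chr11:83578637-83578886 (minus strand) and Ccl8 at chr11:82114935-82115184 (plus strand). Capitals mark motif matches.
Ccl20: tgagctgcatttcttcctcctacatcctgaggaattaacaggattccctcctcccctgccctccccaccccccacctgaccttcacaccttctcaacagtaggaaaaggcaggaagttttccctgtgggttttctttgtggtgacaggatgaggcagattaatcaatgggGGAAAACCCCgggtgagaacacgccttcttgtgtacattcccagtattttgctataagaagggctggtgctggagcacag
Ccl9: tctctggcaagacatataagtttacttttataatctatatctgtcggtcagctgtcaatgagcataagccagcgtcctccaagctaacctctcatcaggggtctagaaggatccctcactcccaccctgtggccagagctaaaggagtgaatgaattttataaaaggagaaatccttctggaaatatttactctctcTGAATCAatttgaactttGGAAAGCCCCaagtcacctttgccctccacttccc
Ccl8: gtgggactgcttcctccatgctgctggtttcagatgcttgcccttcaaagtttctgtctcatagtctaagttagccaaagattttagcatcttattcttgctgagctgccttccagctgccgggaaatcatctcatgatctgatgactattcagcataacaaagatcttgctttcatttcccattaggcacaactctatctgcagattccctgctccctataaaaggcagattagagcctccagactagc
The window searched, on both strands, ran from 250 bases before to 50 after the start. The NF-kappaB motif matched at 80 bases before the start in Ccl20 and at 35 bases before it in Ccl9, as it did somewhere in 8.46% of all 32851 promoters. The AP-1 motif TGANTCA matched at 53 bases before the start of Ccl9, apart from its NF-kappaB match, and occurred in 7.81% of promoters. The core of the interferon-stimulated response element (3.44% of promoters) and the C/EBP motif TTNNGCAAT (2.18%) matched in none of the 3 windows, and Ccl8 had no match to any of the 4. A match describes these letters and is not evidence that a factor binds.

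Of 17 further CC chemokine genes, 11 had counts and 3 were tested. Ccl17, a ligand of Ccr4, was almost absent at days 0 and 1, with at most 14 counts in a library, and rose between day 1 and day 3 in siControl to 2.71, 1.99 and 2.73 CPM (5.11 ± 0.57, adjusted p = 9.06e-08). In siChst7 it reached 9.88, 6.93 and 11.8 CPM at day 3, all above siControl (1.94 ± 0.28, adjusted p = 1.21e-05). The interaction term did not call this effect different from that at day 1 (0.21 ± 1.31, adjusted p = 0.926). At 514 bases Ccl17 is among the genes under 1000 bases, whose median was 0.55 at day 3. No value of Ccl17 with the length trend removed is given here. From day 1 to day 3 in siChst7 it rose by 5.32 ± 0.39 on the log2 scale. Over the first day it was not called in siControl (0.36 ± 1.17) or in siChst7 (1.52 ± 0.78). Ccl25 stayed between 5.31 and 7.52 CPM in group means and was called higher in siChst7 at day 3 (0.49 ± 0.16). The ranges overlapped there, at 9.18, 5.85 and 7.54 CPM in siChst7 against 5.14, 6.51 and 4.29 CPM in siControl. Ccl25 also overlaps a gene of the opposite strand, Elavl1, and reads of that pair cannot be told apart here either. Ccl28 was below 0.4 CPM in every group mean and was called lower at day 1 (-1.72 ± 0.58, adjusted p = 0.0436).

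Receptors for these ligands were scarce. Of 15 receptor and decoy receptor genes 13 had counts and 5 were tested. Ccr1, a receptor of Ccl5, Ccl7 and Ccl9, fell from 3.16 ± 0.670 CPM at day 0 to 0.0401 ± 0.0695 at day 1 in siControl (-6.23 ± 0.58). Over the same day Ccrl2, an atypical receptor that binds chemerin, rose from 0.345 ± 0.121 to 2.34 ± 0.347 CPM (2.75 ± 0.26). Ccr6, the receptor of Ccl20, rose from 0.00738 ± 0.0128 to 0.508 ± 0.197 CPM and on to 1.70 ± 0.290 CPM at day 3, where siChst7 was lower at 0.792 ± 0.355 CPM (-1.07 ± 0.35, adjusted p = 0.016). The ligand Ccl20 was higher in siChst7 at that day. With these counts, Ccr1 and Ccrl2 did not pass the test between siChst7 and siControl at any day.

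The NF-kappaB list holds subunits of the factor and its regulators. In siControl from day 0 to day 1, 10 of its 15 tested genes were lower and 3 higher, beside 30.8% and 29.5% of all tested genes, with a median log2 fold change of -0.59 beside 0.00 over all genes. The inhibitor Nfkbia fell from 110 ± 0.543 to 35.4 ± 0.632 CPM (-1.63 ± 0.04), the ubiquitin-editing inhibitor Tnfaip3 fell by 2.01 ± 0.08 on the log2 scale and the subunit Relb by 1.28 ± 0.06. The subunit Rel rose by 0.95 ± 0.08. At day 3, where the members differed most between siRNAs, 2 genes of the list were higher in siChst7, Chuk (0.23 ± 0.04) and Tnfaip3 (0.23 ± 0.08), and 2 lower, Tnip1 (-0.29 ± 0.05) and Rel (-0.22 ± 0.08). Over all tested genes 23.1% were higher and 21.6% lower, so at day 3 the list was not called more often than genes at large. The list's median was -0.08 there, and the abundant Nfkb1 (-0.10 ± 0.05), Nfkb2 (-0.03 ± 0.04) and Nfkbiz (0.07 ± 0.04) did not pass the test. With siChst7 at day 1, 3 of the 15 were higher (Nfkbia, Tnfaip3 and Relb) and 1 lower (Rel). The shares of all tested genes were 8.86% and 8.72%. At day 0, 4 of the 15 were higher and 2 lower, beside 13.9% and 13.5% of all tested genes.

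Among cytokines known to induce these chemokines and their receptors, in siControl 17 of 21 tested genes were lower at day 1 than at day 0 and 3 higher, beside 30.8% and 29.5% of all tested genes. The tumour necrosis factor receptor gene Tnfrsf1b fell by 2.50 ± 0.07 on the log2 scale, the interleukin-1 receptor antagonist Il1rn by 3.71 ± 0.12 and the interleukin-4 receptor Il4ra by 2.17 ± 0.08. With siChst7, 11 genes were higher and 3 lower at day 0, 6 higher and 1 lower at day 1, and 5 higher and 6 lower at day 3. The shares of all tested genes were 13.9% and 13.5%, 8.86% and 8.72%, and 23.1% and 21.6%, so that the day 3 counts were near the background. Il1rn was at 74.7 ± 4.40 CPM against 29.4 ± 0.376 in siControl at day 0 (1.35 ± 0.09). The interleukin-1 receptor accessory protein Il1rap (0.60 ± 0.05), Il6 (1.80 ± 0.37) and Il1r1 (0.34 ± 0.09) were higher at day 3, while Ifnar1 (-0.27 ± 0.04) and Il6st (-0.23 ± 0.05), both far more abundant than Il6, were lower. Il6 itself was below 0.6 CPM in both day 3 groups.

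Among 9 tested STAT and IRF genes, 8 were lower at day 1 than at day 0 in siControl, where 30.8% of all tested genes were, among them Stat2 (-0.67 ± 0.06) and Irf1 (-0.58 ± 0.06). With siChst7, 6 were higher at day 1, beside 8.86% of all tested genes. At day 3, beside 23.1% higher and 21.6% lower over all tested genes, 4 were higher, among them Irf7 (0.83 ± 0.13), Irf9 (0.42 ± 0.08) and Irf3 (0.23 ± 0.05), and 2 lower, Stat3 (-0.25 ± 0.04) and Stat6 (-0.22 ± 0.04). Of 8 genes for messenger RNA decay or stability, 2 were lower with siChst7 at day 3, beside 21.6% of all tested genes. Zfp36, the tristetraprolin gene whose product destabilises chemokine messages, rose in the first day in siControl (0.48 ± 0.09). It was lower with siChst7 at day 3 (-0.31 ± 0.09) and already at day 0, at 15.5 ± 1.66 against 19.5 ± 1.49 CPM. The interaction term between these days did not call Zfp36. Zfp36l1 was lower at day 3 (-0.28 ± 0.04) but called higher at day 0, at 179 ± 9.55 against 139 ± 4.67 CPM. The endoribonuclease gene Zc3h12a fell from 53.6 ± 3.75 to 9.63 ± 0.794 CPM in the first day (-2.48 ± 0.09).

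Of 6 tested genes of proteases that can trim chemokines, 5 were lower at day 1 than at day 0 in siControl and 1 higher, beside 30.8% and 29.5% of all tested genes. Mmp3, the stromelysin-1 gene, fell from 528 ± 6.04 CPM at day 0 to 19.9 ± 1.88 at day 1 and 0.592 ± 0.0668 at day 3 in siControl. Mmp13 fell from 170 ± 2.91 to 7.04 ± 0.245 and 0.479 ± 0.197 CPM. Both were higher with siChst7 at every day, Mmp3 by 0.75 ± 0.06, 1.08 ± 0.07 and 0.76 ± 0.23 and Mmp13 by 0.82 ± 0.08, 1.26 ± 0.11 and 1.14 ± 0.30 on the log2 scale. Unlike Ccl2 and Ccl7, Mmp3 went on falling in siChst7 from day 1 to day 3 (-5.37 ± 0.11). Mmp14 and Mmp2, of higher level at day 3, were lower with siChst7 there (-0.40 ± 0.05 and -0.36 ± 0.05).

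Outside the family, the genes with a pattern most like that of Ccl2 over the 18 libraries were Cxcl10 (Pearson r of log2(CPM + 1) = 0.991), Gbp7 (0.989) and Prkg2 (0.988), among 9887 tested genes with a mean of at least 5 CPM and no symbol of a predicted gene. For Ccl7 they were Casp4 (0.988), Dtwd1 (0.982) and Ces1g (0.982), and for Ccl5 Wdr12 (0.983), Fgf7 (0.981) and Denr (0.978). Libraries of a group and day enter each r together, so it mostly describes the group means. Cxcl10 went from 39.7 ± 1.09 CPM at day 0 to 1.04 ± 0.467 at day 1 and 0.887 ± 0.275 at day 3 in siControl, and was at 4.11 ± 1.60 CPM in siChst7 at day 3. Within the family the same measure was 0.967 between Ccl2 and Ccl5 and 0.965 between Ccl2 and Ccl7. It was 0.407 between Ccl2 and Ccl9 and 0.0256 between Ccl8 and Ccl9, the pair least alike.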

How the data were processed

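Gene-level read counts were deposited by the authors as whole numbers, not normalized, for 24514 genes. Per the submitters' processing notes, the authors' tools included HISAT2, Subread, featureCounts and DESeq2 with the build mm10. Of versions, annotation, strand setting and the handling of reads with several hits, the labels and notes say nothing. Of counts from 1 to 10, 64.4% were even, so both reads of a pair may have been counted, and a low count may stand for fewer fragments.

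Columns were matched to samples by library name. All 18 libraries, of 30590742 to 50021142 counts, entered 1 edgeR 4.0.16 quasi-likelihood fit (R 4.3.3) of 6 groups, after filterByExpr (13802 genes, 6 of the 7 members) and TMM scaling, with 12 residual degrees of freedom. Tests were two-sided, and a gene was called at a Benjamini-Hochberg adjusted p below 0.05 over all tested genes. The SE is the absolute log2 fold change over the square root of F. CPM uses TMM-scaled totals, and a floor of 3 counts covers counting error only. On simulated data for the day 0 comparison (13702 genes), 99.1% of 2-fold and 100% of 4-fold changes were recovered. Recovery in the other comparisons was not tested. These include day 3, where the siChst7 libraries stood apart and Ccl8 had 0 to 12 counts. The rates therefore do not extend to that day, to counts that low, or to genes or libraries of larger spread.

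The members, lists and tests were chosen with earlier results of these data known. Named from each list were its 3 most abundant tested genes and up to 3 called genes each way of smallest p in a comparison. Alternatives were other scalings, filters, DESeq2 1.42.0, fits to the compared groups only, the replicate number as a block and leaving out each library, and, added after seeing the data, removal of the trend with gene length and halved counts.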

Additional observations from a re-analysis of the deposited data

Results flagged for a closer look

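The effect of siChst7 on single chemokine genes differed between days by the interaction term of the edgeR fit in 11 cases. Both terms with day 3 use the same day 3 libraries and called the same 5 genes, so these cases are not independent. For Ccl2 the effect was larger at day 1 than at day 0 by 0.87 on the log2 scale (adjusted p = 0.00105). Against day 0, the day 3 effect was larger by 1.84 for Ccl2 (adjusted p = 4.92e-08), 2.65 for Ccl5 (8.92e-08), 1.51 for Ccl7 (5.1e-07), 2.05 for Ccl9 (2.52e-06) and 2.04 for Ccl20 (0.000124). Against day 1, it was larger by 0.96 for Ccl2 (adjusted p = 0.000576), 2.09 for Ccl5 (4e-05), 1.32 for Ccl7 (3.12e-05), 1.97 for Ccl9 (0.000171) and 2.18 for Ccl20 (0.000301). Ccl9 is the member whose called effect changed sign, from lower with siChst7 at days 0 and 1 to higher at day 3.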

How the results depend on the processing

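The 5 members called higher with siChst7 at day 3 were called under every alternative run, as were the 5 called lower in siControl from day 0 to day 1. The number of members called at day 0 rose from 3 to 5 with the length trend removed and with compared libraries only, where Ccl2 and Ccl5 joined. For the effect at day 1 against that at day 0 it rose from 1 to 2 with no filter and with compared libraries only. Compared libraries only also gave 3924 called genes in place of 2426 for siChst7 at day 1 and 2448 in place of 1615 for the effect at day 1 against day 0. The cause was not tested. The change of Ccl7 in siControl from day 1 to day 3, never called, turned positive under 8 settings: 0.095 with library totals, 0.049 with upper quartile scaling, 0.017 with a stricter filter, 0.012 with halved counts, 0.0089 with compared libraries only, 0.0089 with the DESeq2 test, 0.0075 with the size factors of DESeq2 and 0.0061 with no filter. Ccl5 in siChst7 from day 1 to day 3 turned to -0.24 with the length trend removed, uncalled. Leaving out 1 library turned further uncalled values: Ccl20 at day 0 ranged from -0.10 to 0.11, including -0.0062, and at day 1 from -0.30 to 0.16, including 0.0076; for the effect at day 1 against day 0, Ccl9 ranged from -0.21 to 0.23 and Ccl20 from -0.31 to 0.15, including 0.00075; for day 3 against day 1, Ccl8 ranged from -0.78 to 0.995.

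Same-numbered siControl and siChst7 libraries of a day showed little shared deviation from their group means, with correlations between -0.125 and 0.0607 over 9 pairs. Same-numbered libraries of different days were not compared. With 3 libraries per group, these values cannot settle whether the samples were paired. With the replicate block, Ccl8 at day 0 lost its call (adjusted p = 0.0521) and Ccl20 in siChst7 from day 0 to day 1 gained one (0.0462). No other member's call changed.

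Library totals in place of TMM shift siControl at day 3 by 0.147 log2 units against day 1 and day 0, and siChst7 at day 3 by 0.103 against day 1. Genes called higher and lower then numbered 4833 and 2599 in place of 3150 and 4462 (siControl, day 3 against day 1), 5807 and 4238 in place of 4680 and 5452 (day 3 against day 0), 5405 and 3474 in place of 4375 and 4623 (siChst7, day 3 against day 1), and 2759 and 1217 in place of 1916 and 1869 (siChst7 at day 0). For the effect at day 1 and at day 3 against day 0 they numbered 522 and 1206, and 2101 and 3780, in place of 856 and 759, and 2853 and 2503. Upper quartile scaling gave 4221 and 3151 for siControl at day 3 against day 1. With the length trend removed, the effect at day 3 against day 1 had 1706 and 2372 in place of 2112 and 1814, and with no filter 1834 and 2455. Without replicate 3 of siChst7 at day 3, 2194 and 3146 genes were called in place of 3182 and 2983 for siChst7 at that day. Depth limits Ccl8 at day 3 (0 to 12 counts) and Ccl11 (0 to 6 counts).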
